A study of Homo sapiens with 40 samples.

Results

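The BCL2 family decides at the mitochondrion whether a cell enters apoptosis, and 10 of its genes were followed here in RKO, an established cell line from a human colorectal carcinoma. The genes were BAX, BAK1, BBC3, PMAIP1, BID, BIK, BCL2L1, BCL2L11, BCL2L12 and MCL1, taken as the rows of the count table whose Ensembl identifier carries one of these symbols. They are 10 of the 19962 genes in the table, and 10 of 10 passed the filter on low counts, which left 11428 genes for testing.

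Family members act through physical contact with one another at the outer mitochondrial membrane. BAX and BAK, the effectors, assemble into pores that release cytochrome c, which the apoptosome then uses to activate executioner caspases. BH3-only proteins such as PUMA (from BBC3), NOXA (from PMAIP1), BID, BIK and BIM (from BCL2L11) trigger the effectors or block their inhibitors, and the guardians BCL-XL (from BCL2L1) and MCL-1 hold effectors and BH3-only proteins in check. BAX, BBC3 and PMAIP1 are known for induction by DNA damage, BCL2L1 has a known NF-kB response, and MCL1 is known for a short-lived mRNA and protein. In colorectal cells BCL-XL is a well-known survival factor.

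The study measured total poly(A) RNA in 40 libraries, 4 in each of 10 groups, and asked what loss of the RNA-binding proteins IGF2BP2 and IGF2BP3 does to the transcriptome. All cells carried Cas9 under doxycycline control, GFP and a BFP-marked pair of guide RNAs, and all received the nucleoside s4U at 250 µM for 2 hours. The guide pair was directed at AAVS1 (a control locus), at IGF2BP2 or at IGF2BP3, giving the sgAAVS1, sgIGF2BP2 and sgIGF2BP3 lines. Each line was a pool of cells sorted for the blue reporter after lentiviral delivery, with guides driven by human and mouse U6 promoters and the reporter by a PGK promoter.

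In each of the 3 lines, 4 libraries came from cells given doxycycline (Dox) at 250 ng/mL for 72 hours, which induces Cas9, and 4 from cells given DMSO. In the sgIGF2BP2 line, 4 libraries came from cells transfected with an siRNA pool against IGF2BP2 (siIGF2BP2) and 4 from cells with a non-targeting siRNA (siControl), each at 75 nM for 48 hours. In the sgIGF2BP3 line, 4 libraries came from cells with an siRNA pool against IGF2BP3 (siIGF2BP3) and 4 from cells with siControl, at the same dose and time. The siRNA groups are labelled as having no Dox or DMSO treatment, and each targeting siRNA pool was used in 1 line only. No label says that the 4 wells of a group came from separate cultures, so the p-values measure only the spread between these wells, which may be technical.

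Total counts per library ranged from 10018181 to 24822807. The targeted genes were lower where the labels say so: the mean IGF2BP2 level went from 85.3 ± 1.58 to 33.9 ± 3.5 CPM (mean ± SD, n = 4) with Dox in the sgIGF2BP2 line and from 108 ± 4.10 to 30.2 ± 1.08 CPM with its siRNA, where CPM are counts scaled to TMM-adjusted library size. IGF2BP3 went from 180.2 ± 4.09 to 56.2 ± 3.62 CPM with Dox in the sgIGF2BP3 line and from 169.8 ± 4.78 to 24.7 ± 1.56 CPM with its siRNA. IGF2BP3 also fell with Dox in the sgIGF2BP2 line, from 178.9 ± 9.22 to 151 ± 4.24 CPM (log2 fold change -0.25, edgeR adjusted p = 2.93e-06), and IGF2BP2 was higher with siControl than with DMSO in the sgIGF2BP2 and sgIGF2BP3 lines (log2 0.34 and 0.28). The second sgIGF2BP2 Dox library stood apart from its group over all genes (chi-square per gene of 12.0 to 16.8 against the other 3, which gave 2.11 to 2.84 among themselves), and the third siIGF2BP2 library did so less (5.74 to 6.58). Of the epithelial and colon markers, KRT8, KRT18, EPCAM and CDX2 were expressed in every library (at least 12.3 CPM), whereas KRT19, CDH1 and VIL1 had at most 4 counts in any library and CDX1 was listed at 0. Summed leukocyte, fibroblast and endothelial markers reached at most 0.645, 1.1 and 0.455 CPM in any library, and CD3E, DCN and LUM were at 0. In bulk libraries such as these, fewer cells of a type and less RNA per cell cannot be told apart.

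The 10 genes lie on 7 chromosomes, and 3 of them share the long arm of chromosome 19 with AAVS1 (coordinates from GENCODE release 29 on GRCh38). Among the effectors, BAX (ENSG00000087088) spans chr19:48954815-48961798 on the forward strand and BAK1 (ENSG00000030110) chr6:33572547-33580293 on the reverse strand. Among the BH3-only genes, BBC3 (ENSG00000105327) spans chr19:47220822-47232766 on the reverse strand and PMAIP1 (ENSG00000141682) chr18:59899948-59904306 on the forward strand. BID (ENSG00000015475) spans chr22:17734138-17774770 on the reverse strand, BIK (ENSG00000100290) chr22:43110748-43129712 and BCL2L11 (ENSG00000153094) chr2:111119378-111168447, both on the forward strand. The guardians BCL2L1 (ENSG00000171552), at chr20:31664452-31723989, and MCL1 (ENSG00000143384), at chr1:150574551-150579738, lie on the reverse strand. BCL2L12 (ENSG00000126453), a relative whose role in apoptosis is less settled, spans chr19:49665142-49673916 on the forward strand. Part of its exon sequence, 734 bases or 33.1%, is shared with the oppositely oriented gene IRF3, and 43.0% of the exon bases of BCL2L1 lie opposite the antisense transcript ABALON. Smaller parts lie opposite other genes: 10.9% of BCL2L11 (MIR4435-2HG, a long noncoding RNA), 4.1% of BAK1 (the pseudogene GGNBP1) and 2.5% of BBC3 (MIR3190, a microRNA). No source used here says whether counting was by strand, so the values of BCL2L12, BCL2L1, BCL2L11, BAK1 and BBC3 are uncertain to that extent. BAK1 and BCL2L12 also have processed pseudogenes (BAK1P1, BAK1P2 and BCL2L12P1) that can share reads with them.

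Promoter sequence from RefSeq (GRCh38.p14) was matched for 8 of the 10 genes, and those of BAX and BBC3 are shown because both genes rose with Dox in all 3 lines and both hold the same motif. Each line gives the stretch of the 250 bases before the RefSeq start that lies outside the GENCODE gene, 5′ to 3′ on the gene's own strand, with matches to the E-box CACGTG in capitals. BAX is chr19:48954625-48954814 on the forward strand and BBC3 chr19:47232767-47232917 on the reverse strand.
BAX: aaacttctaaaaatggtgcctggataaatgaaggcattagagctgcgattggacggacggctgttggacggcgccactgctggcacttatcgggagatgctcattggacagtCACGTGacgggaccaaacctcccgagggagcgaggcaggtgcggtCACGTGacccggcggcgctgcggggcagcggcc
BBC3: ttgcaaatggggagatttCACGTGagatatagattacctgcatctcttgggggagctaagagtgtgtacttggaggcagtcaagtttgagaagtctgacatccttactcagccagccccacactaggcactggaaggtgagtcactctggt
CACGTG, which reads the same on both strands, occurred 4 times in the full 250-base window of BAX, at 138, 93, 45 and 14 bases before the start, the latter pair inside the GENCODE gene and so not in the printed stretch. It occurred 1 time in BBC3, at 232 bases before the start, and in 2 of the 5 windows of BID, a gene that did not pass the test with Dox in any line. CACGTG did not occur in the windows of BAK1 and BCL2L1, which also rose with Dox in all 3 lines. It is found in 6.34% of 35116 RefSeq promoter windows of the same length. An NF-kB site (9.96% of windows) had no match in these windows of the 8 genes. Both strands were searched for each motif, a match is a description of the letters only, and the absence of a match says only that these letters are not in this window.

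MCL1 was by far the most abundant of the 10 mRNAs, and the BH3-only genes BBC3, PMAIP1, BIK and BCL2L11 were the scarcest. Levels between genes are compared as CPM per kilobase of exon (GENCODE), averaged over the 40 libraries. MCL1 stood at 180.0 CPM per kilobase (range over libraries 134 to 213), followed by BCL2L1 at 66.4 (55.6 to 84.2), BAX at 63.0 (53.8 to 80.3) and BAK1 at 56 (42.7 to 68.7). The order of these neighbours was not firm: BCL2L1 was above BAX in 28 of 40 libraries and BAX above BAK1 in 32, whereas MCL1 was above BCL2L1 in 40 of 40. BCL2L12 at 38.2 (33.7 to 43.0) and BID at 20.5 (17.0 to 22.9) came next, without overlap between them, and BAK1 was above BCL2L12 in 40 of 40 libraries. BBC3 at 4.73 (2.34 to 8.43), PMAIP1 at 3.25 (1.92 to 4.87), BIK at 2.34 (1.27 to 3.60) and BCL2L11 at 1.30 (1.09 to 1.58) had overlapping ranges, and each was above the next in 36, 37 and 39 of 40 libraries.

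The 4 scarcest genes were the least precise. BIK had only 14 to 55 counts per library and a coefficient of variation within groups of 24.4% on CPM, against 12.0% for BBC3, 11.4% for PMAIP1, 10.8% for BCL2L11 and 2.80% to 4.75% for the other 6 genes. Across the 10 group means, BBC3 varied most, 2.40-fold from its lowest to its highest group, followed by PMAIP1 at 1.83-fold and BIK at 1.58-fold. BAK1, BCL2L1, MCL1 and BAX varied by 1.43-, 1.42-, 1.41- and 1.37-fold, while BID, BCL2L12 and BCL2L11 varied by 1.19-, 1.16- and 1.15-fold.

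**Figure D1:**
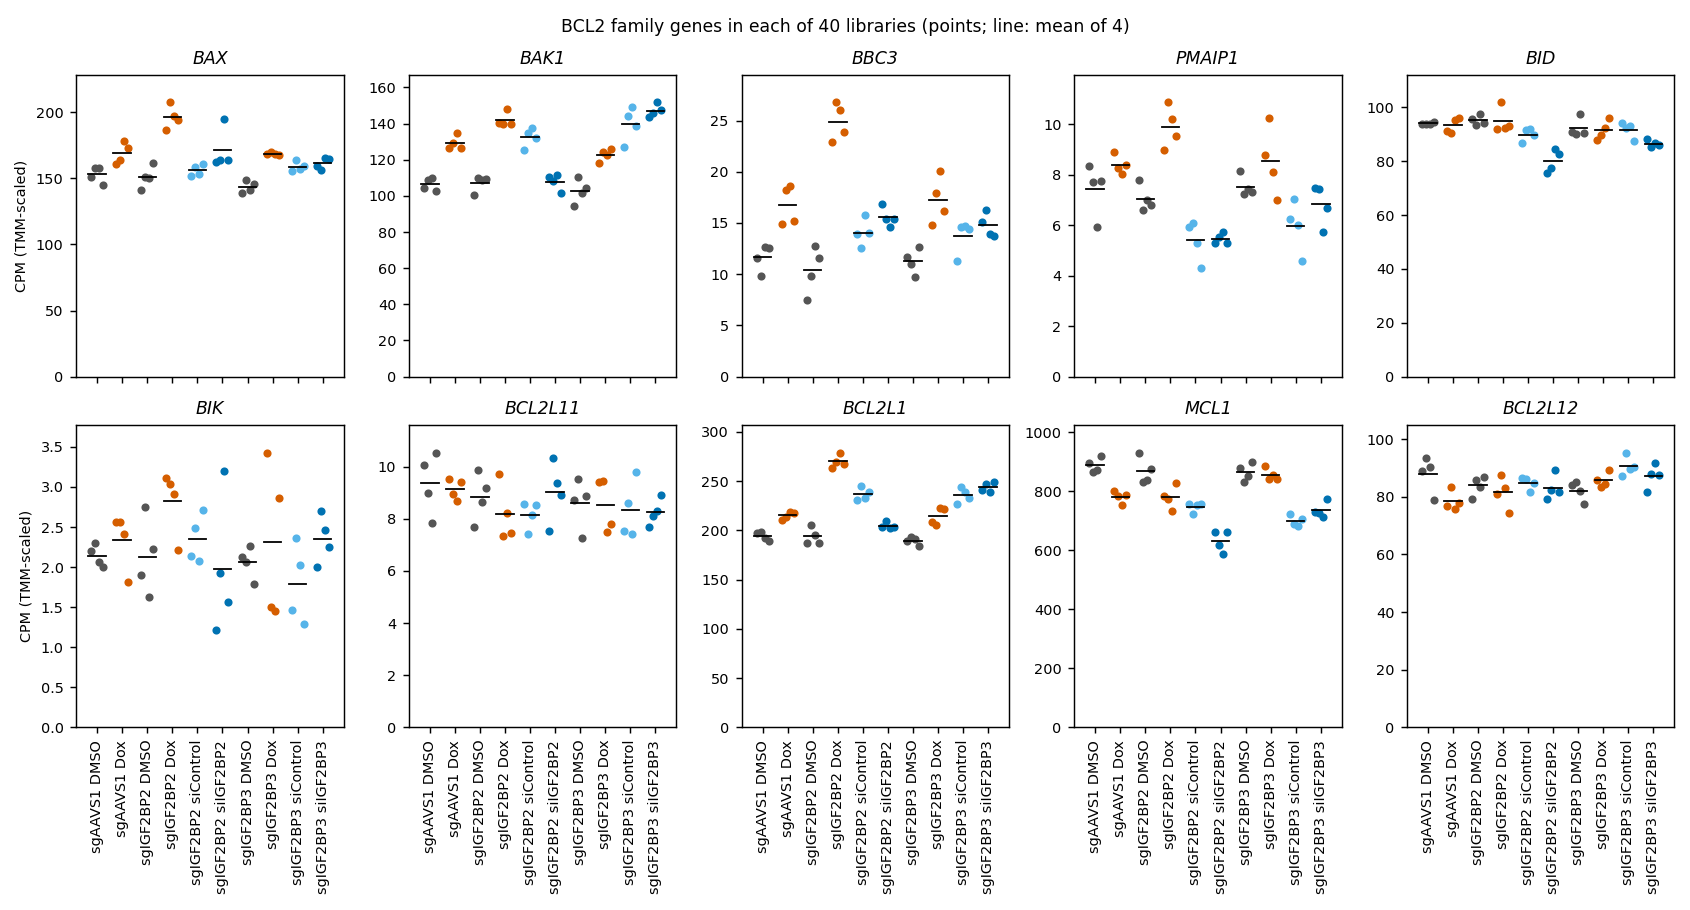
Level of each of the 10 genes in CPM (y axis, from 0, a separate scale per gene) in every library (points) by group (x axis), with the mean of 4 as a line. BBC3 in the sgIGF2BP2 Dox libraries lies between 22.9 and 26.8 CPM, above every other group, and MCL1 is lowest in the siIGF2BP2 libraries.

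Dox was compared with DMSO within each line, groups that differ in the drug, Cas9 and cutting at once, which cannot be told apart. BAX, BAK1, BBC3 and BCL2L1 rose with Dox in all 3 lines. MCL1 fell in the sgAAVS1 and sgIGF2BP2 lines, PMAIP1 rose in the sgIGF2BP2 line, and BCL2L12 fell in the sgAAVS1 line. A gene is called, and said to have risen or fallen, when its adjusted p-value (edgeR's quasi-likelihood test, Benjamini-Hochberg over 11428 genes) was under 0.05. In the sgAAVS1 line 6 of 10 genes were called (4 higher, 2 lower), against 15.9% of all genes tested. In the sgIGF2BP2 line 6 were called (5 higher, 1 lower), against 20.4% of all genes. In the sgIGF2BP3 line 4 were called, all higher, against 2.64% of all genes. The median log2 fold change of the 10 genes was 0.14, 0.39 and 0.17 in the 3 lines, beside medians over all genes tested of 0.0044, 0.0077 and 0.0027.

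BAX, which forms pores in the outer mitochondrial membrane, rose modestly with Dox in the control line and more in the sgIGF2BP2 line. In sgAAVS1 cells its level was 151, 158, 158 and 145 CPM with DMSO and 161, 164, 178 and 173 CPM with Dox. The lowest Dox library lay just above the highest DMSO library, and the estimate of 0.14 on the log2 scale (SE 0.0423, edgeR adjusted p = 0.0126) was lost without DMSO replicate 4 or Dox replicate 3 or after thinning the libraries to the smallest total count (adjusted p up to 0.0712). In sgIGF2BP2 cells the level was 141, 151, 151 and 162 CPM with DMSO and 187, 208, 197 and 194 CPM with Dox, with no overlap and a log2 fold change of 0.38 (SE 0.0417, adjusted p = 7.21e-11). In sgIGF2BP3 cells it was 139, 149, 141 and 146 CPM with DMSO and 168, 169.6, 168 and 167 CPM with Dox, again without overlap (log2 fold change 0.23, SE 0.0423, adjusted p = 0.000282).

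BAK1, the second pore-forming effector, rose with Dox in each line. In sgAAVS1 cells its level was 104, 109, 109.8 and 102 CPM with DMSO and 127, 129, 135 and 126 CPM with Dox (log2 fold change 0.28, SE 0.0426, adjusted p = 8.68e-07). In sgIGF2BP2 cells it was 100.4, 109.9, 109 and 109.6 CPM with DMSO and 140.2, 139.9, 148 and 140.0 CPM with Dox (log2 fold change 0.40, SE 0.0420, adjusted p = 9.97e-12). In sgIGF2BP3 cells the means were 103 ± 6.61 and 123 ± 3.25 CPM (n = 4 each; log2 fold change 0.26, adjusted p = 4.39e-05). In none of the 3 lines did the Dox and DMSO libraries overlap.

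BBC3, which encodes PUMA, one of the strongest BH3-only killers, had the largest change among the 10 genes in each line. In sgIGF2BP2 cells its level was 7.45, 9.87, 12.7 and 11.5 CPM with DMSO and 22.9, 26.8, 26.0 and 23.9 CPM with Dox, a 2.32-fold rise (log2 1.22, SE 0.0992, adjusted p = 9.99e-16). Every Dox library was well above every DMSO library, and the gene ranked 29 of 11428 by the size of its log2 fold change. In sgAAVS1 cells it was 11.6, 9.82, 12.7 and 12.5 CPM with DMSO and 14.9, 18.3, 18.6 and 15.2 CPM with Dox (log2 fold change 0.51, SE 0.106, adjusted p = 0.000278). In sgIGF2BP3 cells it was 11.7, 11, 9.68 and 12.7 CPM with DMSO and 14.8, 18.0, 20.1 and 16.2 CPM with Dox (log2 fold change 0.61, SE 0.105, adjusted p = 6.23e-05). The groups did not overlap in any line.

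PMAIP1, which encodes NOXA, a BH3-only protein known for its binding to MCL-1, passed the test only with Dox in the sgIGF2BP2 line among the 3 Dox effects. Its level there was 7.78, 6.61, 7.01 and 6.80 CPM with DMSO and 8.97, 10.9, 10.2 and 9.53 CPM with Dox (log2 fold change 0.50, SE 0.113, adjusted p = 0.000618), without overlap. In sgAAVS1 cells the means were 7.44 ± 1.04 and 8.41 ± 0.365 CPM, and the 95% interval of the log2 fold change was -0.06 to 0.41. In sgIGF2BP3 cells they were 7.53 ± 0.418 and 8.54 ± 1.35 CPM, with an interval of -0.05 to 0.41. The effect in the sgIGF2BP2 line was not shown to differ from that in the sgAAVS1 line (difference 0.32, 95% interval -0.0013 to 0.65, adjusted p = 0.235).

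The other 3 BH3-only genes did not pass the test with Dox in any line. BID, which caspase-8 cleaves to link death receptors to mitochondria, had log2 fold changes of -0.01, -0.0027 and -0.01 in the sgAAVS1, sgIGF2BP2 and sgIGF2BP3 lines (95% intervals -0.09 to 0.07, -0.08 to 0.08 and -0.09 to 0.07). BCL2L11, which encodes BIM, stood at 8.84 ± 0.914 CPM with DMSO and 8.19 ± 1.09 CPM with Dox in sgIGF2BP2 cells (interval -0.34 to 0.11), and its estimates in the other lines were -0.04 and -0.02. BIK, a BH3-only protein of the endoplasmic reticulum, stood at 1.90, 2.75, 1.63 and 2.22 CPM with DMSO and 3.12, 3.04, 2.91 and 2.21 CPM with Dox in sgIGF2BP2 cells. These libraries overlapped, and its log2 fold change of 0.47 (interval 0.04 to 0.90, adjusted p = 0.119) was not resolved at 14 to 55 counts per library.

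The 2 guardians moved in opposite directions in the sgAAVS1 and sgIGF2BP2 lines. BCL2L1 in sgIGF2BP2 cells was 188, 206, 195 and 188 CPM with DMSO and 263, 269.9, 279 and 268 CPM with Dox (log2 fold change 0.48, SE 0.0332, adjusted p = 8.38e-19, the smallest of the 10 genes in any Dox effect). In sgAAVS1 cells it was 197, 199, 192 and 189 CPM with DMSO and 211, 214, 219 and 217 CPM with Dox (log2 fold change 0.15, SE 0.0337, adjusted p = 0.001). In sgIGF2BP3 cells the means were 189 ± 3.95 and 215 ± 8.73 CPM (log2 fold change 0.18, adjusted p = 0.000317). All Dox libraries were above all DMSO libraries of their line.

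MCL1 in sgAAVS1 cells was 896, 864, 870.5 and 919 CPM with DMSO and 800.3, 783, 752 and 787 CPM with Dox, a fall without overlap (log2 fold change -0.18, SE 0.0364, adjusted p = 0.000128). In sgIGF2BP2 cells it was 930.4, 832, 839 and 876 CPM with DMSO and 785, 773, 733 and 827 CPM with Dox (log2 fold change -0.16, SE 0.0364, adjusted p = 0.000831), again with every Dox library lower. In sgIGF2BP3 cells the groups overlapped: 879.9, 830.4, 851 and 900.2 CPM with DMSO and 884, 840.0, 854 and 843 CPM with Dox (log2 fold change -0.02, interval -0.09 to 0.06, adjusted p = 0.865).

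BCL2L12 was called lower in sgAAVS1 cells, although the libraries overlapped. Its level was 89.0, 93.4, 90.5 and 78.9 CPM with DMSO and 76.8, 83.5, 75.8 and 78.0 CPM with Dox (log2 fold change -0.16, SE 0.0475, adjusted p = 0.0127). The call was lost without DMSO replicate 2 (adjusted p = 0.085). IRF3, the interferon regulatory factor that shares exon bases with it, had a log2 fold change of 0.10 in the same comparison (adjusted p = 0.15). In the sgIGF2BP2 and sgIGF2BP3 lines the estimates for BCL2L12 were -0.04 and 0.06, neither called.

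**Figure D2:**
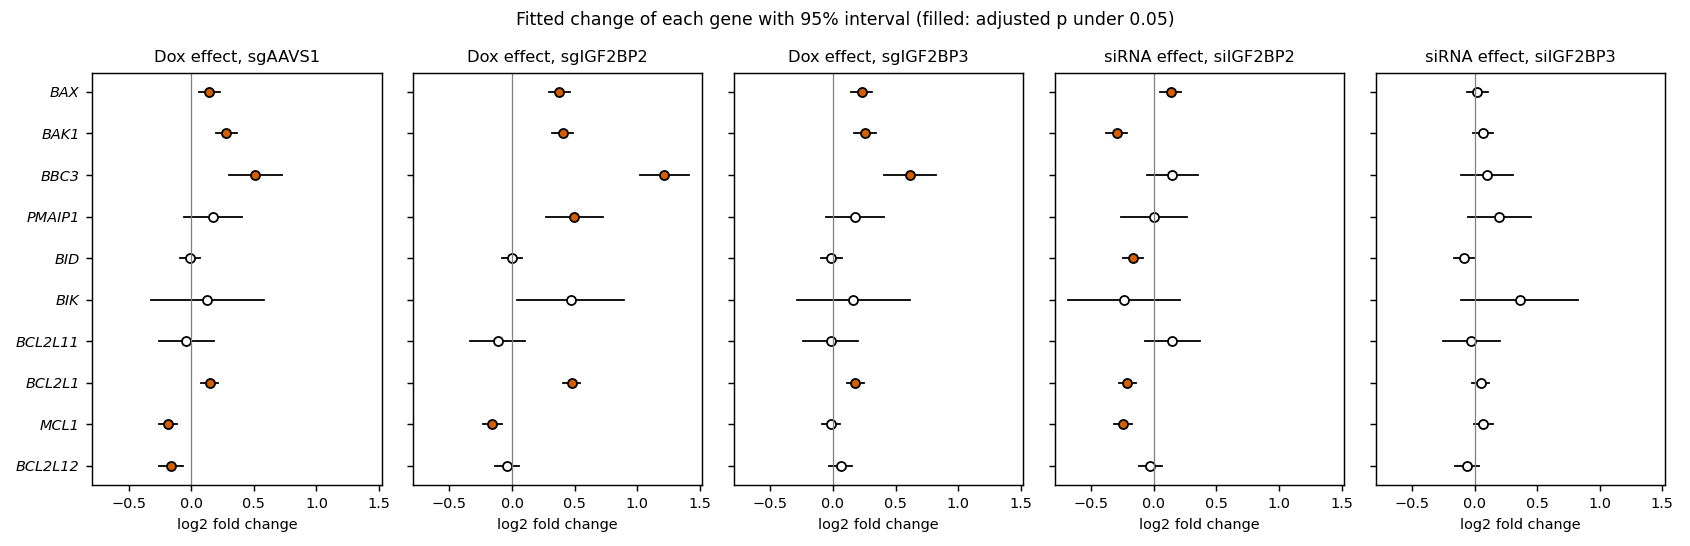
Fitted log2 fold change (x axis) with its 95% interval for each gene (y axis) in the 3 Dox effects and the 2 siRNA effects, from edgeR; filled points have an adjusted p under 0.05. BBC3 lies farthest to the right in each Dox panel, at 0.51, 1.22 and 0.61, and no point is filled for siIGF2BP3.

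Whether the Dox effects differed between lines was tested as a difference of log2 fold changes in the same edgeR model. Of the 10 genes, 3 rose more in the sgIGF2BP2 line than in the sgAAVS1 line, against 6.97% of all genes called in either direction: BBC3 by 0.71 (SE 0.146, adjusted p = 0.000756), BCL2L1 by 0.33 (SE 0.0473, adjusted p = 1.02e-06) and BAX by 0.23 (SE 0.0594, adjusted p = 0.00747). For BAK1 the difference was 0.12 (interval 0.0024 to 0.24, adjusted p = 0.221). The sgIGF2BP3 line stood apart from the sgIGF2BP2 line in the opposite sense, with 2 of 10 genes called (2.91% of all genes): BBC3 at -0.60 (SE 0.145, adjusted p = 0.0085) and BCL2L1 at -0.30 (SE 0.0472, adjusted p = 2.61e-05). BBC3 and BCL2L1 thus rose more with Dox in sgIGF2BP2 cells than in either other line. Without the second sgIGF2BP2 Dox library, which holds the highest BBC3, BAX and PMAIP1 levels of that group, the same numbers of the 10 genes were called: 6 with Dox in the line, 3 against sgAAVS1 and 2 against sgIGF2BP3. The Dox effect without it was 1.17 for BBC3, 0.35 for BAX, 0.48 for BCL2L1 and 0.44 for PMAIP1, and the excess of BBC3 over sgAAVS1, 0.66, was still called.

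Against the sgAAVS1 line, the sgIGF2BP3 line differed in 2 of 10 genes (7.78% of all genes): MCL1 by 0.17 (adjusted p = 0.0309) and BCL2L12 by 0.22 (adjusted p = 0.0268), both genes that fell in sgAAVS1 cells and did not pass the test in sgIGF2BP3 cells. Over 24 alternatives, MCL1 was called in 18 and BCL2L12 in 17, and neither was called without sgAAVS1 Dox replicate 3. For BBC3, BAX, BAK1 and BCL2L1 the intervals of this difference were -0.19 to 0.40, -0.03 to 0.20, -0.15 to 0.09 and -0.06 to 0.13. The differences against sgAAVS1 share its 8 libraries, and those libraries differed in a gene that no guide was labelled to target: SPOP, a substrate adaptor of a CUL3 ubiquitin ligase, went from 36.7 ± 1.48 to 11.4 ± 1.22 CPM with Dox in that line. The part of SPOP in the values of the BCL2 family genes was not tested.

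BAX, BBC3 and BCL2L12 lie 6.13, 7.86 and 5.42 Mb from PPP1R12C, the gene that holds the AAVS1 locus on chromosome 19. Among the 141 tested genes from BBC3 to PPP1R12C, 15.6% were called with Dox in sgAAVS1 cells (9 higher, 13 lower), with a median log2 fold change of -0.001. The share was 19.9% in sgIGF2BP2 cells (22 higher, 6 lower) and 4.96% in sgIGF2BP3 cells (7 higher, 0 lower), with medians of 0.06 in both. Over all genes tested, 15.9%, 20.4% and 2.64% were called in the sgAAVS1, sgIGF2BP2 and sgIGF2BP3 lines. BAX and BBC3 are among these 141 genes and were called higher in every line, so that they lie above these medians follows from the calls. BCL2L12 lay below the median in sgAAVS1 cells (-0.16) and sgIGF2BP2 cells (-0.04). The part of position on the chromosome in these values was not tested.

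The balance of the 2 guardian mRNAs differed between treatments. The ratio of MCL1 to BCL2L1, each in CPM per kilobase, was 3.46 ± 0.158 in sgAAVS1 cells given DMSO and 2.75 ± 0.115 in those given Dox (mean ± SD, n = 4), 3.41 ± 0.308 and 2.19 ± 0.151 in sgIGF2BP2 cells, and 3.47 ± 0.195 and 3.02 ± 0.158 in sgIGF2BP3 cells. The ratio was lower with Dox in all 3 lines, without overlap between libraries, and is given as a description of levels already tested gene by gene. Both siControl groups lay below the sgAAVS1 Dox group, at 2.39 ± 0.111 in sgIGF2BP2 cells and 2.26 ± 0.128 in sgIGF2BP3 cells, and it stood at 2.34 ± 0.143 with siIGF2BP2 and 2.28 ± 0.0584 with siIGF2BP3.

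**Figure D3:**
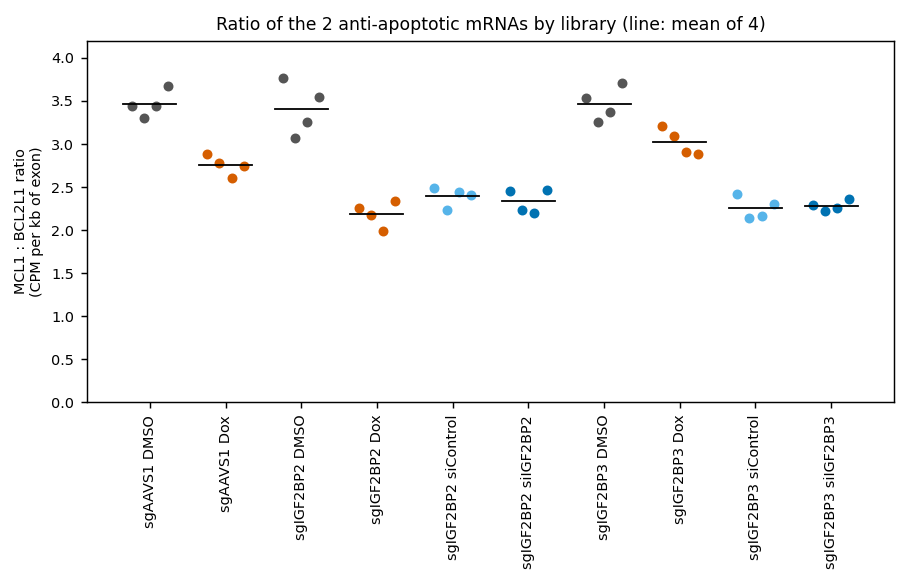
Ratio of MCL1 to BCL2L1 mRNA (y axis, both in CPM per kilobase of exon, from 0) in each library (points) by group (x axis), with the mean of 4 as a line. The 3 DMSO groups have means of 3.41 to 3.47, and the sgIGF2BP2 Dox group has the lowest mean, 2.19.

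The rest of the pathway was read from lists of genes around the 10. Over all genes tested, 15.9%, 20.4% and 2.64% were called with Dox in the sgAAVS1, sgIGF2BP2 and sgIGF2BP3 lines. Among 12 reference genes of the DNA damage response, which include the cell cycle inhibitor CDKN1A, 7 rose and 0 fell with Dox in sgAAVS1 cells (for example ZMAT3 at 0.52 and MDM2 at 0.36 on the log2 scale), 12 rose in sgIGF2BP2 cells (for example SESN1 at 0.96 and FDXR at 0.76) and 5 rose in sgIGF2BP3 cells (for example FDXR at 0.38 and PHLDA3 at 0.23). These examples are not the largest changes of the list. The medians of that list were 0.22, 0.60 and 0.19. Of the 12, 9 rose more in sgIGF2BP2 than in sgAAVS1 cells and 8 rose less in sgIGF2BP3 than in sgIGF2BP2 cells, by the same test of the difference. Those 2 differences were called for 6.97% and 2.91% of all genes. Inhibitors of apoptosis (5 genes) were led by BIRC3, which encodes cIAP2 and rose by 0.86, 0.58 and 0.48 in the 3 lines, while BIRC2 rose by 0.16 and 0.20 and BIRC5, which encodes survivin, was at -0.18 and -0.15 in the sgAAVS1 and sgIGF2BP2 lines. Further BCL2 family genes (10 of 13 tested) had 1 gene up and 1 down in sgAAVS1 cells (BNIP3L at 0.18 and the guardian BCL2A1 at -0.42), 1 up and 1 down in sgIGF2BP2 cells (the BH3-only gene BMF at 1.29 and BCL2 itself at -0.32), and 1 down in sgIGF2BP3 cells (BCL2A1 at -0.26). BMF rested on 1 to 14 counts per library in the groups compared. With 2 of 10 called in sgAAVS1 cells and 2 of 10 in sgIGF2BP2 cells, the further BCL2 family genes lay near the share over all genes.

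Of 8 genes for mitochondrial channels and released proteins, 1 fell in sgAAVS1 cells (ENDOG, a nuclease, at -0.23), 1 fell in sgIGF2BP2 cells (VDAC3, a channel, at -0.13) and 0 passed in sgIGF2BP3 cells by edgeR or DESeq2, with 4 at an unadjusted p under 0.05, beside 15.9%, 20.4% and 2.64% of all genes called in the 3 comparisons. Of 5 genes of the apoptosome and executioner caspases, 0 were called in each of these 3 comparisons by edgeR or DESeq2. At an unadjusted p under 0.05 there were 1, 1 and 0 of the 5. Among regulators of the members, TP73 at -0.20 and HUWE1 at -0.14 were called lower and USP9X at 0.16 higher in sgAAVS1 cells, and TP73 at -0.39 was called lower and FBXW7 at 0.33 higher in sgIGF2BP2 cells. FBXW7 and HUWE1 are ubiquitin ligases and USP9X a deubiquitinase, each known to act on MCL-1 protein.

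Each siRNA was compared with siControl in its own line. With siIGF2BP2, 5 of 10 genes were called (1 higher, 4 lower), against 36.8% of all genes tested, and the median log2 fold change of the 10 was -0.10 beside 0.0108 over all genes. BAK1 and BCL2L1, which had risen with Dox against DMSO in this line, fell against siControl. MCL1 and BID fell and BAX rose. The 2 baselines differ: with DMSO, siControl and siIGF2BP2, BAK1 had means of 107, 132 and 108 CPM and BCL2L1 of 194, 237 and 205 CPM. Their siIGF2BP2 means thus did not lie below the DMSO means. MCL1 (869, 747 and 631 CPM) and BID (95.3, 89.9 and 80.1 CPM) were lowest of the 3 with siIGF2BP2. The siIGF2BP2 and DMSO groups were not tested against each other.

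BAK1 stood at 125, 135, 137 and 132 CPM with siControl and 110.3, 108, 112 and 102 CPM with siIGF2BP2, without overlap (log2 fold change -0.29, SE 0.0421, adjusted p = 3.63e-08 by edgeR). BCL2L1 went from 231, 245, 233 and 239 to 204, 209.5, 202 and 204 CPM (log2 fold change -0.21, SE 0.0332, adjusted p = 4.18e-07). MCL1 went from 757, 722, 751 and 757 to 661, 617, 585 and 661 CPM (log2 fold change -0.24, SE 0.0366, adjusted p = 1.32e-07), and its siIGF2BP2 libraries were the 4 lowest of all 40. BID went from 86.7, 91.5, 91.8 and 89.7 to 75.8, 77.4, 84.6 and 82.8 CPM, the only comparison of the 5 Dox and siRNA effects in which it was called (log2 fold change -0.16, SE 0.0405, adjusted p = 0.000886). All 4 genes had every siIGF2BP2 library below every siControl library.

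The rise of BAX rested on 1 library. BAX was 151, 158, 154 and 161 CPM with siControl and 162, 164, 195 and 164 CPM with siIGF2BP2, so that replicate 3 stood far above the other 3 (log2 fold change 0.14, SE 0.0418, adjusted p = 0.00724). Without that library the estimate was 0.07 (adjusted p = 0.176), and the call was also lost when GC content and length were corrected for. BBC3, the most responsive gene to Dox, was 13.9, 12.6, 15.7 and 14 CPM with siControl and 16.9, 15.4, 14.7 and 15.4 CPM with siIGF2BP2, overlapping groups whose difference did not pass the test (log2 fold change 0.15, interval -0.05 to 0.35, adjusted p = 0.262). PMAIP1, BIK, BCL2L11 and BCL2L12 were not called either, with estimates of 0.0005, -0.24, 0.15 and -0.03.

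With siIGF2BP3, 0 of 10 genes were called by edgeR and 0 by DESeq2, against 2.34% of all genes in edgeR, and 1 of 10 (BID) had an unadjusted p under 0.05. The smallest adjusted p was 0.332. BID stood at 94.1, 92.5, 93.0 and 87.4 CPM with siControl and 88.1, 85.3, 86.7 and 85.9 CPM with siIGF2BP3, overlapping groups (log2 fold change -0.08, interval -0.17 to -0.0034). For the abundant genes the intervals were narrow: -0.06 to 0.10 for BAX, -0.01 to 0.15 for BAK1, -0.02 to 0.11 for BCL2L1, -0.0020 to 0.14 for MCL1 and -0.15 to 0.03 for BCL2L12. BBC3 had an interval of -0.11 to 0.31, PMAIP1 of -0.05 to 0.45 and BCL2L11 of -0.25 to 0.20. For BIK the interval of -0.11 to 0.83 was too wide to exclude a change of the size BBC3 showed with Dox in sgAAVS1 cells.

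The siRNA effects differed from each other in 3 of 10 genes, against 18.7% of all genes tested. The siIGF2BP3 effect minus the siIGF2BP2 effect was 0.36 for BAK1 (SE 0.0589, adjusted p = 2.18e-06), 0.31 for MCL1 (SE 0.0517, adjusted p = 3.13e-06) and 0.26 for BCL2L1 (SE 0.0469, adjusted p = 2.06e-05). For BID, called with siIGF2BP2 only, the difference of 0.08 did not pass the test (interval -0.04 to 0.19, adjusted p = 0.376). The 2 siRNAs were used in different lines, so line and siRNA cannot be told apart in these differences, apart from the subtraction of each line's own siControl.

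Around the members, siIGF2BP2 lowered 2 of the 8 mitochondrial genes (VDAC2, a channel known to bind BAK, at -0.19, and CYCS, which encodes cytochrome c, at -0.12), beside 36.8% of all genes called. Among the further BCL2 family genes BCL2A1 was at -0.33, and BAD at 0.19 and BOK at 0.11 were called higher. Of the inhibitors of apoptosis, XIAP, the direct caspase inhibitor, rose by 0.25, while BIRC3 at -0.35 and BIRC6 at -0.12 were called lower. The 12 DNA damage response genes split, with 3 higher and 3 lower (ZMAT3 at -0.40, CDKN1A at -0.38 and FDXR at 0.30) and a list median of 0.02. Of the regulators, FOXO3, a known activator of BCL2L11, rose by 0.26 and ATF4 by 0.11. The epithelial keratins also moved with siIGF2BP2, KRT18 at -0.49 and KRT8 at 0.55, and their part in these values was not tested. With siIGF2BP3, where edgeR called only 2.34% of all genes, it called 0 genes of the 5 lists other than the DNA damage response genes. In those 5 lists, 4 genes had an unadjusted p under 0.05, and DESeq2 called 1. Among those 12 genes MDM2 rose by 0.16 and RRM2B was lower at -0.19.

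The non-targeting siRNA itself was compared with DMSO in the lines that had both, which asks what the transfection arm shares before any knockdown. BAK1 and BCL2L1 rose and MCL1 fell in both lines. Of the 3 tested epithelial markers, 2 were also lower in both: KRT8 at -0.29 and -0.27 and KRT18 at -0.23 and -0.12 on the log2 scale, and their part in these values was not tested. In the sgIGF2BP2 line 5 of 10 genes were called (3 higher, 2 lower), against 18.4% of all genes, and in the sgIGF2BP3 line 6 (5 higher, 1 lower), against 19.4% of all genes. The siControl cells differed from the DMSO cells in siRNA, transfection reagent and solvent at once, and these cannot be told apart. The comparison shares its DMSO libraries with the Dox effects and its siControl libraries with the siRNA effects.

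BAK1 had log2 differences of 0.30 (SE 0.0418, adjusted p = 6.26e-08) in sgIGF2BP2 cells and 0.45 (SE 0.0422, adjusted p = 1.73e-13) in sgIGF2BP3 cells, where its siControl libraries were 127, 144, 149 and 139 CPM and its DMSO libraries 94.5, 111, 102 and 104 CPM. BCL2L1 had 0.29 (adjusted p = 2.35e-10) and 0.32 (adjusted p = 1.14e-11), with means near 237 ± 6.44 and 236 ± 7.48 CPM under siControl. MCL1 had -0.22 (adjusted p = 4.50e-06) and -0.31 (adjusted p = 6.11e-10), and its siControl libraries in sgIGF2BP3 cells were 722, 690.2, 681 and 706 CPM against 879.9, 830.4, 851 and 900.2 CPM with DMSO. For these 3 genes no siControl library overlapped the DMSO libraries of its line.

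BBC3, PMAIP1 and BAX had smaller or less stable calls here. BBC3 was called higher in both lines, at 0.39 (adjusted p = 0.00525) and 0.30 (adjusted p = 0.041), but its libraries overlapped in both, and the calls were lost without sgIGF2BP2 DMSO replicate 1 (adjusted p = 0.0599) and in 8 of 16 alternatives in the sgIGF2BP3 line (adjusted p up to 0.157). PMAIP1 was lower with siControl: 5.92, 6.10, 5.31 and 4.29 CPM against 7.78, 6.61, 7.01 and 6.80 CPM with DMSO in sgIGF2BP2 cells, a log2 difference of -0.37 (adjusted p = 0.0251) that was called in 11 of 16 alternatives. In sgIGF2BP3 cells its difference of -0.32 did not pass the test (interval -0.57 to -0.08, adjusted p = 0.0527). BAX was called higher in the sgIGF2BP3 line, at 0.15 (adjusted p = 0.00934) against an estimate of 0.04 that did not pass in the sgIGF2BP2 line, and so was BCL2L12, at 0.14 (adjusted p = 0.0201) against 0.01. Whether the lines differed in these values was not tested as a contrast of its own.

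The lines were also compared with each other before any knockout, and no gene of the 10 was called. For sgIGF2BP2 against sgAAVS1, sgIGF2BP3 against sgAAVS1 and sgIGF2BP3 against sgIGF2BP2 with DMSO, and for sgIGF2BP3 against sgIGF2BP2 with siControl, 0 of 10 genes were called by edgeR and 0 by DESeq2, against 0.0175% of all genes in each. At an unadjusted p under 0.05 there were 0, 2 (BAX and BCL2L12), 0 and 3 (BAK1, BCL2L12 and MCL1) of 10, and the smallest adjusted p was 0.844, 0.402, 0.871 and 0.831. BBC3 with DMSO stood at 11.7 ± 1.31, 10.4 ± 2.28 and 11.3 ± 1.25 CPM in the sgAAVS1, sgIGF2BP2 and sgIGF2BP3 lines, and BCL2L1 at 194 ± 4.35, 194 ± 8.70 and 189 ± 3.95 CPM. The 95% interval of the log2 difference between sgIGF2BP2 and sgAAVS1 was -0.34 to 0.10 for BBC3 and -0.07 to 0.07 for BCL2L1.

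Some members had similar patterns over the 10 group means. Described by Pearson's r of mean log2 CPM over the 10 groups, BAX and BBC3 had r = 0.957, BAK1 and BCL2L1 0.930, and BID and MCL1 0.784. BCL2L1 also followed BBC3 (0.76) and BAX (0.696), while BAK1 had lower values with BBC3 (0.623) and BAX (0.534). BAX with BBC3 and BAK1 with BCL2L1 were thus closer within each pair than between the pairs, without being unrelated. BCL2L1 and BCL2L11 had -0.749, but BCL2L11 was not called in any comparison. Its group means varied only 1.15-fold, with a coefficient of variation within groups of 10.8%. The groups share lines and controls, so the r values describe the 10 means and carry no test. When plotted, BBC3 against BAX separates the sgIGF2BP2 Dox group from the rest, and BAK1 against BCL2L1 places the siControl groups among the Dox groups.

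**Figure D4:**
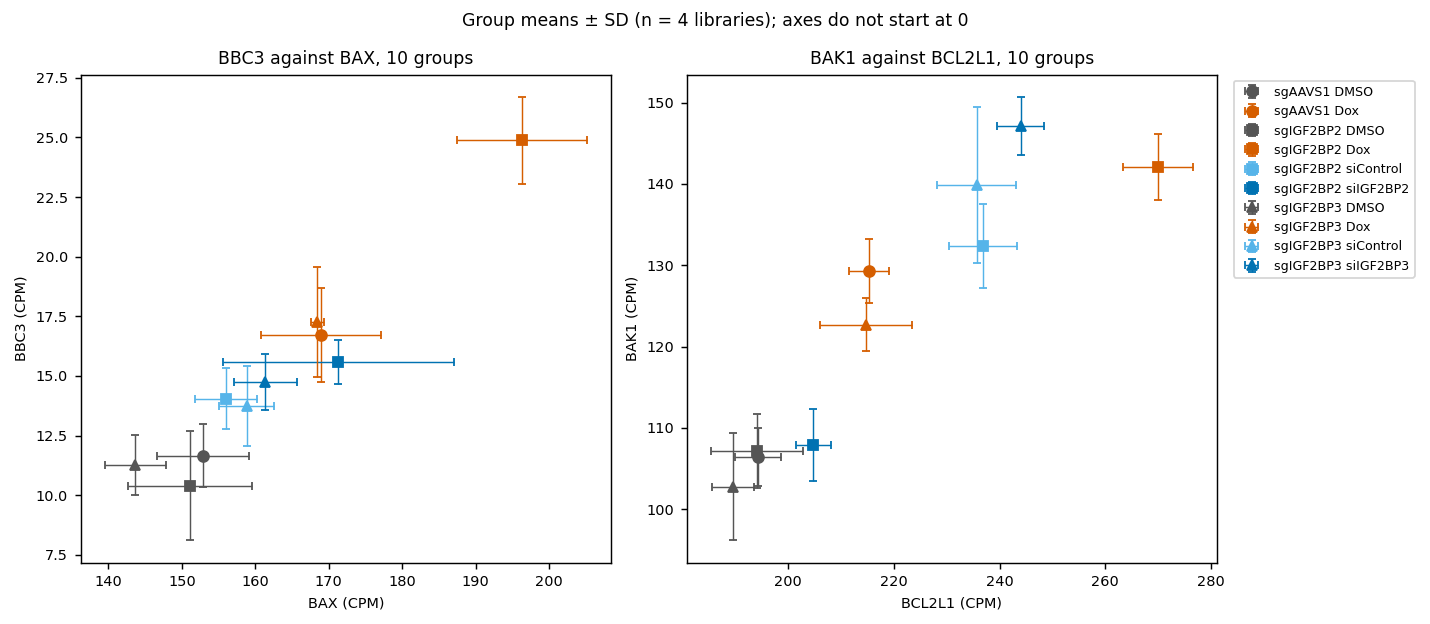
Group means ± SD (n = 4 libraries, in CPM) of BBC3 (y axis) against BAX (x axis), left, and of BAK1 (y axis) against BCL2L1 (x axis), right, for the 10 groups; axes do not start at 0. The sgIGF2BP2 Dox group is highest for BBC3 (24.9 CPM), BAX and BCL2L1, while the siIGF2BP2 group (BAK1 at 108, BCL2L1 at 205 CPM) lies nearest to the 3 DMSO groups.

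Low genes (mean log2 CPM under 2) left out, 9957 genes were compared, and the closest patterns by the same measure were IDUA (r = 0.979) and GPSM1 (0.968) for BAX, and BAX (0.957) and FBXW7 (0.952) for BBC3. TAP1 (0.969) and BIRC3 (0.943) were closest to BAK1, and RELB (0.935) and TAP1 (0.934) to BCL2L1. NEU3 (0.951) and FAM53C (0.947) were closest to PMAIP1, and AHSA1 (0.974) and NSFL1C (0.971) to BID. MCAT (0.958) and TBC1D10B (0.957) were closest to BCL2L12, and PSMA7 and FBL (0.960 each) to MCL1. These values are over 10 group means chosen from many genes, and nothing is read from them about control.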

How the data were processed

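The authors deposited raw read counts per Ensembl gene for 40 libraries in 1 table, without normalization, with 0 further columns of samples. Reads were aligned with STAR 2.7.5c to hg38 after bcl2fastq 2.20.0.422, per the submitters' processing notes, and libraries were directional and poly(A)-selected, per the labels' protocols. The counter, its strand setting and its annotation are not given in the sources used here. Labelled and older RNA are counted together, and s4U conversions were not analysed here.

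Of 19962 identifiers, 19895 had a symbol in the gene name table. Genes were kept with filterByExpr, which left 11428 with 99.98% of the counts. TMM factors ranged from 0.978 to 1.03, and the common biological coefficient of variation was 3.79%. One edgeR 4.0.16 quasi-likelihood model (R 4.3.3, limma 3.58.1) was fitted to the 40 libraries with a mean per group, and 15 contrasts were tested with Benjamini-Hochberg adjustment over all genes and a threshold of 0.05. Standard errors were derived from the F statistics (absolute log2 fold change over the root of F), and intervals are at 95% and not adjusted for multiple testing. Of 60 pairs of replicates, each differed by more than sampling noise (chi-square per gene 1.5 to 16.8), so none was treated as a repeat deposit of another. Counts were also simulated for 11428 genes from their shares over all 40 libraries, with the common spread for every gene and changes put into the sgAAVS1 Dox group. Of 100 genes changed 1.5-fold, 92% were recovered, and of 100 changed 2-fold, 97%, with 11 of 11228 unchanged genes called. These shares are for that single spread over genes of all levels and do not give the recovery for BBC3, PMAIP1, BCL2L11 or BIK.

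All 10 genes are named in each comparison. Of the surrounding lists, at most 3 called genes per list and comparison are named, those with the largest log2 fold change, apart from some that are not reported here, so that the genes named are not always the largest, and the likeness search names the 2 closest genes of each member called in a Dox or siRNA effect. IRF3, SPOP, the keratins and the chromosome 19 interval were chosen after values were seen. The members and lists were chosen with earlier results of these data known. Alternatives were DESeq2 1.42.0 (Wald test), its size factors, no filter, a stricter filter (1 CPM in 4 libraries), a replicate block, only the groups compared, thinning to the smallest total count, a GC and length offset, and leaving out each library.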

Additional observations from a re-analysis of the deposited data

Results flagged for a closer look

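Dixon's test on the 4 libraries of each group flagged 6 of 100 gene and group combinations, where chance gives about 5. BAX in siIGF2BP2 replicate 3 stood at 195 CPM, with the other 3 libraries between 162 and 164, and this library carries the BAX call of that comparison. BAK1 stood at 100.4 CPM in sgIGF2BP2 DMSO replicate 1 (others 109 to 109.9) and at 148 CPM in sgIGF2BP2 Dox replicate 3 (others 139.9 to 140.2). BBC3 stood at 11.2 CPM in sgIGF2BP3 siControl replicate 1 (others 14.4 to 14.7). BID stood at 102 CPM in sgIGF2BP2 Dox replicate 2 (others 92.0 to 93.3) and at 97.6 CPM in sgIGF2BP3 DMSO replicate 3 (others 90.2 to 91.0).

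The Dox effect differed between lines for 5 genes, by edgeR's test of the difference. Between sgIGF2BP2 and sgAAVS1 the log2 difference was 0.71 for BBC3, 0.33 for BCL2L1 and 0.23 for BAX. Between sgIGF2BP3 and sgAAVS1 it was 0.22 for BCL2L12 and 0.17 for MCL1, which were called in only 17 and 18 of 24 alternatives. Between sgIGF2BP3 and sgIGF2BP2 it was -0.60 for BBC3 and -0.30 for BCL2L1. The siRNA effects differed, siIGF2BP3 minus siIGF2BP2, by 0.36 for BAK1, 0.31 for MCL1 and 0.26 for BCL2L1.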

How the results depend on the processing

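Over 10 genes, 15 comparisons and all alternatives run, 2677 of 2720 log2 fold changes stayed on their side of the threshold, 35 lost the call, 8 gained it, and no called change turned its direction. Changes of sign among estimates not called were not counted. The number of the 10 genes called moved by more than 1.5 times in 3 comparisons. For sgIGF2BP3 minus sgAAVS1 it was 2, but 1 with the GC and length offset and 0 to 2 when 1 library was left out. It was 0 without sgAAVS1 Dox replicate 3, and 1 without any of sgAAVS1 DMSO replicates 1, 2 and 3, sgAAVS1 Dox replicates 1 and 2, sgIGF2BP3 DMSO replicates 2, 3 and 4, or sgIGF2BP3 Dox replicates 1 and 4. For sgIGF2BP3 minus sgIGF2BP2 it was 2, but 4 with the GC and length offset, which added BAX and MCL1. For siControl against DMSO in sgIGF2BP2 cells it was 5, and 3 to 5 when 1 library was left out, the lowest without DMSO replicate 1. The cause was not tested. Over all genes, calls for Dox in sgIGF2BP3 cells numbered 302, but 479 with only the groups compared, and 103, 147, 160 and 170 without Dox replicate 4, DMSO replicate 4, DMSO replicate 3 and Dox replicate 2. For siIGF2BP3 they numbered 267, but 403 with the GC and length offset and 457 with only the groups compared. For sgIGF2BP3 minus sgAAVS1 they numbered 889, but 378 with that offset, and 525, 1403 and 415 without sgAAVS1 DMSO replicate 2, sgAAVS1 DMSO replicate 4 and sgIGF2BP3 Dox replicate 4. For sgIGF2BP3 minus sgIGF2BP2 they numbered 333, but 580 with the offset.

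The replicate numbers were not used as pairs in the main model: same-numbered libraries had correlations of -0.09 to 0.10 in their deviations from group means. Weak sharing by replicate number was seen in some comparisons. For siControl against DMSO in sgIGF2BP2 cells (0.044 to 0.092), each library correlated best with its same-numbered one. The same held for sgIGF2BP3 against sgAAVS1 cells with DMSO (0.022 to 0.097). With a replicate block the 10 genes gave 6, 6 and 4 calls for Dox in the sgAAVS1, sgIGF2BP2 and sgIGF2BP3 lines, 5 and 0 for siIGF2BP2 and siIGF2BP3, 3, 2 and 2 for the Dox differences, 3 for the siRNA difference, 5 and 7 for siControl in the sgIGF2BP2 and sgIGF2BP3 lines and 0 for each line difference. The added call was PMAIP1 in sgIGF2BP3 cells (log2 difference -0.33, edgeR adjusted p = 0.038).

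Depth limits BIK (14 to 55 counts per library), BCL2L11, PMAIP1 and BBC3 most, and a library left out leaves 3 in its group.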

Other observations

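Genes around the 10 also differed between siControl and DMSO in both lines that had the 2 groups, by edgeR's quasi-likelihood test. APAF1, the scaffold of the apoptosome, was higher by 0.29 and 0.22 on the log2 scale in sgIGF2BP2 and sgIGF2BP3 cells. CYCS, which encodes cytochrome c, was lower, at -0.17 and -0.20, and so was the channel gene VDAC3, at -0.14 and -0.13. In the other direction, VDAC1 was called higher in sgIGF2BP2 cells (0.10) and ENDOG in sgIGF2BP3 cells (0.18), so that 1 of the 8 mitochondrial genes was higher and 2 were lower in each line. Over all genes tested, 18.4% and 19.4% were called in the sgIGF2BP2 and sgIGF2BP3 lines.

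Of the inhibitors of apoptosis BIRC3 was higher by 0.54 and 0.73, with means of 12.0 ± 0.567 and 12.5 ± 1.17 CPM with siControl against 8.15 ± 0.876 and 7.52 ± 1.20 CPM with DMSO (n = 4 each). BCL2A1, a guardian of the same family as BCL2L1 and MCL1, was lower, at -0.46 and -0.56, with 134 ± 3.97 and 122 ± 6.56 CPM with siControl against 185 ± 10.2 and 179.6 ± 4.34 CPM with DMSO. In the siControl cells, then, BCL2L1 and BIRC3 were higher while MCL1 and BCL2A1 were lower.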
